A study of Homo sapiens with 6 samples.

Results

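The genes described here are the 78 protein-coding genes named MRPL or MRPS and a number, with or without a letter A to C, in a table of 58735 human genes. They encode proteins of the mitochondrial ribosome, and the rule that selects them uses the gene name and no expression value, although the set was proposed with earlier results of these data known. RNA was sequenced from KYSE410, an established cell line from an oesophageal squamous cell carcinoma. The control group (3 libraries, titled NC) is labelled wild type, and the siADAR1 group (3 libraries) is labelled ADAR1 knockdown; the labels give no other treatment, put all libraries in 1 batch, and do not say whether the controls received a non-targeting siRNA or how long the knockdown lasted. ADAR1, encoded by ADAR, is a deaminase that edits adenosines in double-stranded RNA to inosine. Nothing in the labels says that the libraries of a group came from separate cultures, so p-values measure the spread between these libraries, which may be technical.

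Mitochondria keep a small genome of their own, whose messenger RNAs encode core subunits of the respiratory chain and are translated on a dedicated ribosome inside the organelle. The ribosomal RNAs of that ribosome are mitochondrially encoded, whereas its proteins are encoded by nuclear genes, made in the cytosol and imported. Some of these proteins descend from bacterial ribosomal proteins (conserved), and others are classed as having no bacterial counterpart (mitochondria-specific). The split is not strictly by descent: MRPS18A and MRPS18B are placed in the mitochondria-specific class, although their paralog MRPS18C is placed among the conserved genes. By name and by known structure, 51 of the 78 genes encode proteins of the large subunit, which forms peptide bonds, and 26 encode proteins of the small subunit, which reads the messenger. MRPS30 and MRPS18A carry small-subunit names but their products sit in the large subunit. The product of the remaining gene, MRPS36, is now regarded as a component of the 2-oxoglutarate dehydrogenase complex.

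The deposited counts summed to between 15175619 and 17329443 reads per library. Levels are given as CPM, counts brought to a common library size scaled by the trimmed mean of M-values (TMM), and, where genes are compared with each other, as the deposited FPKM, which is per length. ADAR stood at 456, 432 and 444 CPM in the controls and at 92.8, 95.7 and 77.6 CPM in the siADAR1 libraries (log2 fold change -2.32 ± 0.09 (SE), adjusted p = 1.06e-08, edgeR quasi-likelihood test). All 8 squamous epithelial markers had counts, summing to 473 to 517 CPM in the controls and 448 to 483 CPM after knockdown, but KRT14 had at most 2 reads in a library, and single markers moved both ways. KRT6A stood at 21.3% and SFN at 62.4% of the control mean after knockdown, and TP63 at 140% and DSG3 at 289%. The 4 leukocyte markers used summed to at most 0.0673 CPM in any library, with CD3E and LYZ at 0 in all 6. Endothelial markers summed to 0.677 to 2.15 CPM, with KDR at 0. A list of 5 fibroblast genes, 4 of them with counts, summed to 40.1 to 59.0 CPM in the controls. In the siADAR1 libraries the list summed to 72.3 to 84.3 CPM, and DCN was at 0 in both groups. LUM rose from a mean of 35 to 58 CPM and COL1A1 from 15.9 to 21.5 CPM. COL1A2 had at most 3 reads in a library, and PDGFRB had a mean of 0.946 CPM in the controls and 0.534 CPM after knockdown. The part of this list in the results below was not tested.

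After ADAR1 knockdown most mitochondrial ribosomal protein transcripts moved little, and those that changed went in both directions. All 78 genes passed the filter on low counts, and 18 fell, 7 rose and 53 did not pass the test at an adjusted p of 0.05 over all 15294 genes tested. The largest fall was that of MRPL23 and the largest rise that of MRPL53. Called genes made up 32.1% of the 78, against a background of 51.0% of all tested genes. For falls alone the shares were 23.1% of the 78 and 25.0% of all tested genes, and for rises 8.97% and 26.0%. The median log2 fold change of the 78 genes was -0.10, beside 0.005 over all tested genes. On library totals alone, a scaling that moved the median of all genes by 0.12, the median of the 78 was 0.02, with 13 genes lower and 12 higher. Of all 15294 tested genes, 2887 were lower and 4892 higher under that scaling. Without siADAR1 library 1, 17 of the 78 fell and 4 rose. Those calls made up 26.9% of the 78, beside 43.7% of all genes tested in that fit.

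**Figure D1:**
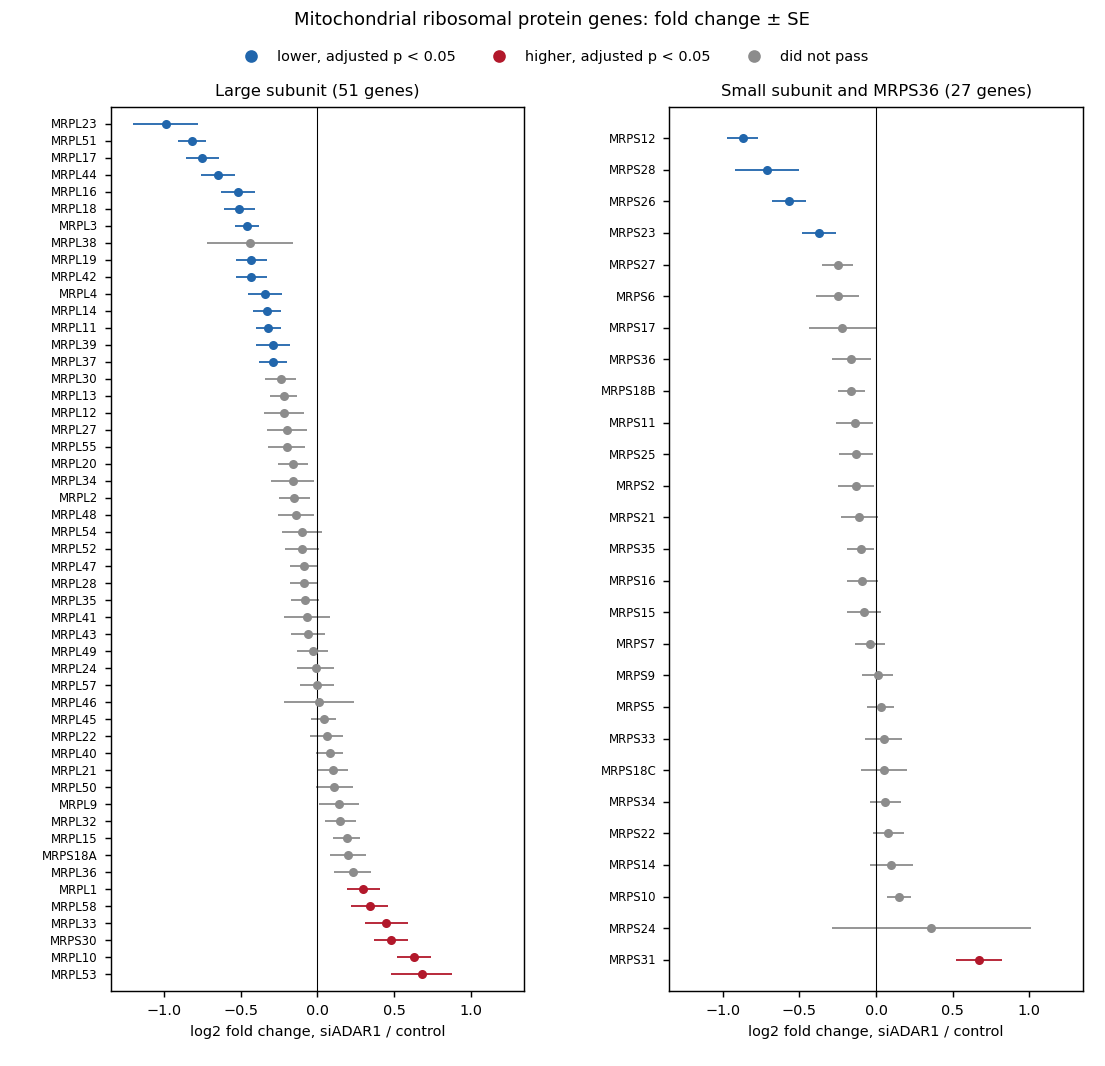
Log2 fold change of siADAR1 over control (horizontal axis) with its standard error for each gene, large-subunit genes on the left and small-subunit genes with MRPS36 on the right, ordered by value. The 18 genes that fell are blue, the 7 that rose are red, and the 53 that did not pass are grey; no value reached 1.0 in either direction.

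The changes were small. Among the 78 genes, 9 passed the test with at least a 1.5-fold change, against 31.5% of all tested genes, and none reached 2-fold. In 33 of the 78 genes (42.3%) the control and siADAR1 libraries did not overlap, 24 with every siADAR1 library lower and 9 with every one higher; groups did not overlap in 60.3% of all tested genes. Genes that did not pass had log2 fold changes from -0.44 (MRPL38) to 0.36 (MRPS24), and 43 of those 53 lay within 0.2 of 0. The standard error of a single gene was 0.11 at the median. At an unadjusted p below 0.05 there were 28 of the 78 genes. The share of all tested genes at that threshold was not computed, but it is at least the 51.0% that passed after adjustment.

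Split by mean level, between 10 and 100 CPM there were 63 of the 78 genes, of which 13 fell and 5 rose (20.6% and 7.94%). Of the 7320 tested protein-coding genes in the same range, 28.2% fell and 29.6% rose. At 100 CPM or more, 4 of 9 genes fell and 1 rose, beside 44.8% and 21.0% of 2263 protein-coding genes. Summed over the 78 genes, the level was 4875, 4844 and 4551 CPM in the controls and 4394, 4354 and 4311 CPM in the siADAR1 libraries. The sum was therefore lower in every siADAR1 library than in any control. As a share of the raw library counts, which carry no scaling, the 78 genes held 0.437 to 0.466% in the controls and 0.446 to 0.461% after knockdown, and these ranges overlapped.

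Of 6 genes placed at the polypeptide exit tunnel, MRPL23 and MRPL17 fell and none rose. The falls make up 33.3%, beside 25.0% of all tested genes that fell and 51.0% called in either direction. The median of the 6 was -0.05. MRPL23 (chr11:1947278-1984522, GRCh38) encodes a protein at the mouth of that tunnel. It stood at 39.9, 25.6 and 29.8 CPM in the controls and at 11.3, 18.8 and 17.9 CPM in the siADAR1 libraries. The groups did not overlap, and siADAR1 library 1 was the lowest. The log2 fold change was -0.99 ± 0.21 (SE, adjusted p = 0.00202), or 50.4% of the control mean. MRPL17 (chr11:6680782-6683401), also near the tunnel exit, stood at 49.7, 51.1 and 47.3 CPM against 26.2, 32.6 and 29.4 CPM (log2 fold change -0.75 ± 0.11, adjusted p = 1.10e-04). The other genes placed at the exit tunnel were MRPL22, MRPL24, MRPL45 and MRPL47, and none of these passed, with log2 fold changes of 0.06, -0.01, 0.04 and -0.09.

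MRPL3, whose bacterial counterpart lies close to the peptidyl transferase centre, stood at 210, 206 and 194 CPM in the controls and 142, 153 and 150 CPM after knockdown (log2 fold change -0.46 ± 0.08, adjusted p = 4.43e-04). MRPL16, also near the active site, fell from 38.9, 42.2 and 34.9 CPM to 25.5, 28.3 and 26.8 CPM (-0.52 ± 0.11, adjusted p = 0.00181). MRPL18, a protein of the central protuberance, fell from 55.3, 61.9 and 57.7 CPM to 37.6, 44.4 and 40.7 CPM (-0.51 ± 0.10, adjusted p = 0.00114). In each of these genes the groups did not overlap. The other 4 genes placed at the central protuberance here were MRPL38, MRPL40, MRPL46 and MRPL48, and none of these passed. That placement may leave out other proteins of the region.

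The stalk, which recruits translation factors to the large subunit, held genes that went opposite ways. MRPL11, of the stalk base, fell from 373, 391 and 334 CPM to 287, 298 and 291 CPM (log2 fold change -0.32 ± 0.08, adjusted p = 0.00493). MRPL10, which anchors the stalk, rose from 36.4, 38.4 and 33.1 CPM to 62.6, 53.9 and 51.0 CPM (0.63 ± 0.11, adjusted p = 4.11e-04). MRPL12, the stalk protein itself, stood at 29.2, 26.2 and 22.9 CPM against 20.3, 23.3 and 23.8 CPM, and its groups overlapped (-0.22 ± 0.13, adjusted p = 0.18). In that gene 68.2% of the exon bases are shared with another annotated gene, the most of any of the 78, so its count is uncertain.

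Of the mitochondria-specific large-subunit genes, MRPL51 (chr12:6491886-6493841) changed most. Its levels were 124, 146 and 126 CPM in the controls and 71.6, 77.3 and 75.1 CPM after knockdown. All siADAR1 libraries lay well below all controls (log2 fold change -0.82 ± 0.09, adjusted p = 1.38e-05). MRPL44, whose product has a fold related to ribonuclease III, stood at 38.1, 44.4 and 44.4 CPM against 26.7, 28.1 and 26.3 CPM (-0.65 ± 0.11, adjusted p = 3.14e-04). MRPL53 (chr2:74471958-74473322), the largest rise, was a low-count gene at 4.11, 4.11 and 4.20 CPM in the controls and 6.43, 7.45 and 6.04 CPM after knockdown (0.68 ± 0.20, adjusted p = 0.011). Without siADAR1 library 2 that gene no longer passed, at 0.59. It also shares 45.2% of its exon bases with CCDC142, which lies on the same strand. MRPS30, a large-subunit protein despite its name, rose from 104, 94.5 and 91.0 CPM to 156, 125 and 123 CPM (0.48 ± 0.11, adjusted p = 0.00203).

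MRPL58 encodes a peptidyl-tRNA hydrolase that became part of the large subunit. Its levels were 28.8, 25.8 and 23.7 CPM in the controls and 35.4, 30.8 and 33.2 CPM after knockdown (log2 fold change 0.34 ± 0.12, adjusted p = 0.0263). The groups did not overlap, but the call was lost when control 2, control 3, siADAR1 1 or siADAR1 3 was left out, at 0.27 to 0.35. MRPL33 stood at 15.0, 19.3 and 20.5 CPM against 27.4, 22.9 and 24.5 CPM (0.45 ± 0.14, adjusted p = 0.0189). Its call was lost without control 1, at 0.31, and without siADAR1 1, at 0.38, and 21.1% of its exon bases are shared with BABAM2. MRPL1, the last of the 6 large-subunit genes that rose, had a log2 fold change of 0.30 and lost its call without any single library other than siADAR1 2. The other 6 large-subunit genes that fell, MRPL42, MRPL19, MRPL4, MRPL14, MRPL39 and MRPL37, had log2 fold changes between -0.43 and -0.29. On library totals alone MRPL4, MRPL14, MRPL37 and MRPL39, and MRPS23 of the small subunit, did not pass. Calls were also lost when 1 library was left out for MRPL39 (any but control 1), MRPL4 (control 1, siADAR1 2 or 3; 21.4% of its exon bases lie opposite another gene) and MRPL37 (siADAR1 2 or 3).

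In the small subunit, 4 of 26 genes fell and 1 rose (15.4% and 3.85%), beside 25.0% and 26.0% of all tested genes. MRPS12 (chr19:38930548-38933162) encodes the protein at the decoding centre, where codon and anticodon are matched. It stood at 82.9, 79.3 and 72.9 CPM in the controls and 38.1, 45.9 and 44.4 CPM after knockdown. Every siADAR1 library was below every control (log2 fold change -0.87 ± 0.10, adjusted p = 2.02e-05), and the mean was 54.6% of the control mean. MRPS26, a mitochondria-specific protein, stood at 38.9, 36.3 and 35.9 CPM against 26.1, 24.0 and 24.5 CPM (-0.57 ± 0.11, adjusted p = 6.60e-04). MRPS28 was a low-count gene at 9.67, 6.39 and 10.8 CPM against 5.64, 5.73 and 5.02 CPM (-0.71 ± 0.21, adjusted p = 0.0131). Its call was lost without control 3, at -0.57, and without siADAR1 3, at -0.65, and 35.8% of its exon bases are shared with AC036214.3. The remaining fall was that of MRPS23, at -0.37, which did not pass without control 2.

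The single rise in the small subunit was that of MRPS31 (chr13:40729135-40771173), a mitochondria-specific protein of the head. It stood at 14.3, 21.8 and 20.8 CPM in the controls, where library 1 was the lowest, and at 32.4, 28.3 and 29.8 CPM after knockdown (log2 fold change 0.67 ± 0.15, adjusted p = 0.0027). The 4 annotated pseudogenes of MRPS31 held 197 reads over all libraries, against 2367 in MRPS31, and their part in the rise was not tested. The 5 other genes placed in the head here, MRPS7, MRPS9, MRPS10, MRPS14 and MRPS24, did not pass. Their log2 fold changes ran from -0.04 to 0.36, and that placement may leave out other proteins of the head. The 3 paralogs MRPS18A, MRPS18B and MRPS18C, which go into different subunits or places of the ribosome, did not pass either. Their values were 0.20 ± 0.12, -0.16 ± 0.09 and 0.05 ± 0.15. MRPS36 stood at 16.1, 17.4 and 18.4 CPM against 15.8, 14.8 and 15.8 CPM (-0.16 ± 0.13, adjusted p = 0.329).

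**Figure D2:**
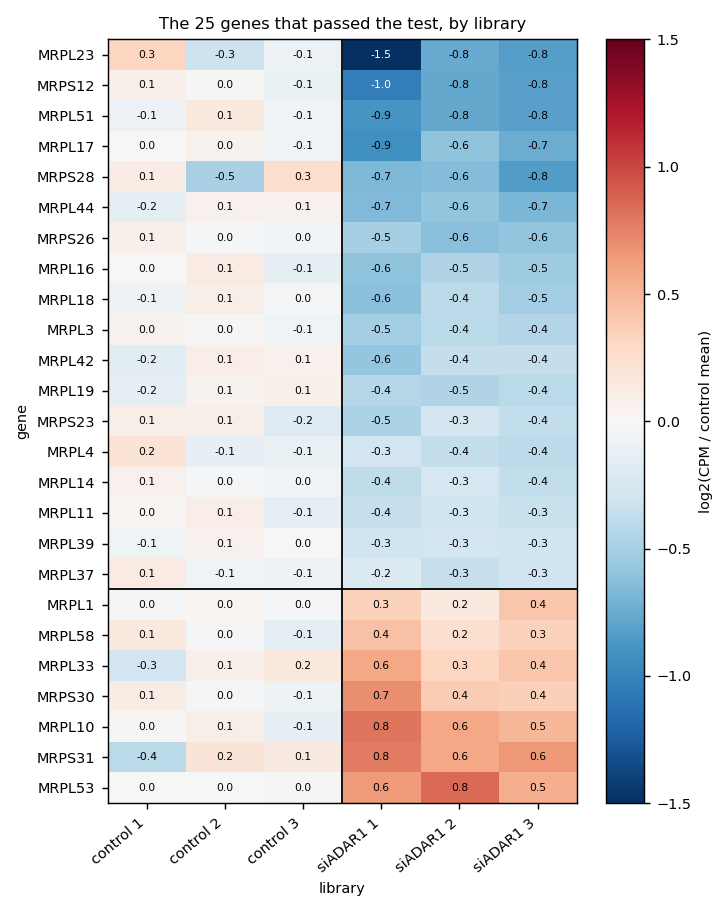
Heat map of the 25 genes that passed the test (rows) in each of the 6 libraries (columns), coloured and numbered by the log2 ratio of the CPM to the mean of the controls. In the 18 upper rows all 3 siADAR1 libraries are below the controls, and in the 7 lower rows all 3 are above them; control 1 stands below the other controls in MRPS31 and MRPL33, and control 2 in MRPS28.

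The subunits and classes gave similar medians. Of all tested genes, 25.0% fell and 26.0% rose. Of the 51 large-subunit genes, 14 fell and 6 rose (27.5% and 11.8%), with a median log2 fold change of -0.10. The median of the 26 small-subunit genes was -0.09, and -0.05 without control 1. Of the 46 conserved genes, 11 fell and 3 rose (23.9% and 6.52%, median -0.12). Of the 31 mitochondria-specific genes, 7 fell and 4 rose (22.6% and 12.9%, median -0.07). Whether these groups differ from each other was not tested. On library totals alone the medians were 0.02 for each subunit, -0.005 for the conserved genes and 0.05 for the mitochondria-specific genes. Without siADAR1 library 1, 3 large-subunit genes and 1 conserved gene rose. Of the 25 calls, 12 falls and 3 rises (MRPL10, MRPS30 and MRPS31) were kept under all 18 alternative settings.

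The 300-base promoter windows of the genes that moved most are shown to set their letters beside the values. They were read from RefSeq (GRCh38.p14), from 250 bases before to 50 bases after a transcription start, and 69 of the 78 genes matched by symbol. MRPL23 was not among them. The windows are chr19:38930694-38930993 (plus strand) for MRPS12, chr12:6493213-6493512 (minus strand) for MRPL51, chr13:40771141-40771440 (minus strand) for MRPS31 and chr2:74472631-74472930 (minus strand) for MRPL53. Capitals mark matches to CCGGAAG, the core bound by ETS-family factors such as GABP, or to its reverse complement.
MRPS12: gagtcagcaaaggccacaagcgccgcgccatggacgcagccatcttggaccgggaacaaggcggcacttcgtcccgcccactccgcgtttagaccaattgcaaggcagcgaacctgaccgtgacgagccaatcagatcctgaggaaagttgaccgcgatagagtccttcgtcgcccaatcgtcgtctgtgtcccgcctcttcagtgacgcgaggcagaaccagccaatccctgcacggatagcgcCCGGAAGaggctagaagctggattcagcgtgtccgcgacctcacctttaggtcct
MRPL51: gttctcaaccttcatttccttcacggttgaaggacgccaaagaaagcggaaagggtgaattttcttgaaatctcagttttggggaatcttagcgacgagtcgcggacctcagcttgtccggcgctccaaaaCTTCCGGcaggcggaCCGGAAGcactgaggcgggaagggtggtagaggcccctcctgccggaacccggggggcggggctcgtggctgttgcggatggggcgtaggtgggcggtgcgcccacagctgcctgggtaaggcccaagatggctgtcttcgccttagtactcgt
MRPS31: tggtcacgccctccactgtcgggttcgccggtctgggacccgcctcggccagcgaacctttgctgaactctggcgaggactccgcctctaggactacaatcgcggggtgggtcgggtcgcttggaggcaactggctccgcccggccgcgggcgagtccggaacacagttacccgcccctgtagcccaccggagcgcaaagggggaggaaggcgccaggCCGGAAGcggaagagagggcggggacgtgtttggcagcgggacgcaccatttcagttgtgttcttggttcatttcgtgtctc
MRPL53: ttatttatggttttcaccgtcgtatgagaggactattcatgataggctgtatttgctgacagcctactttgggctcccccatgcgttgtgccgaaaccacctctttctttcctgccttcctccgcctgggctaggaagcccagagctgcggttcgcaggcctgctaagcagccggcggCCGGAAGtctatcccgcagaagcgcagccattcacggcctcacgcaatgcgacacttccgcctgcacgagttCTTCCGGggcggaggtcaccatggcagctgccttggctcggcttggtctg
Genes that fell (MRPS12, MRPL51) and genes that rose (MRPS31, MRPL53) alike held the ETS letters, once in MRPS12 and MRPS31 and at 2 places in MRPL51 and MRPL53.

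Across the matched genes, searched on both strands, CCGGAAG was present in 42.0% of 69 promoters, against 19.3% of 10121 promoters of tested protein-coding genes and 10.7% of all 27305 promoters of that length. AANATGGCG, a core of the YY1 motif, was present in 26.1%, against 6.86% and 3.37%. GCGCANGCG, the NRF1 motif, was present in 18.8%, against 14.7% and 8.05%, and TATAAA in 2.90%, against 5.56% and 12%. In none of the 69 promoters did matches of different motifs overlap. By call, the ETS letters were in 6 of 16 promoters of genes that fell, 4 of 6 of genes that rose and 19 of 47 of genes that did not pass. The YY1 letters were in 2 of 16, 2 of 6 and 14 of 47, and the NRF1 letters in 4 of 16, 0 of 6 and 9 of 47. These are matches of letters, not evidence of binding.

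Per length, the 78 genes spanned a wide range around a median of 17.2 FPKM. The large-subunit genes had a median of 18.6 FPKM and the small-subunit genes 11.0 FPKM, while the 77 cytosolic ribosomal protein genes had a median of 151 FPKM. MRPL45, which tethers the ribosome to the inner membrane, was the highest by far, at 268, 249 and 235 FPKM in the controls and 274, 255 and 241 FPKM after knockdown. MRPL11 followed at a mean of 128 FPKM over the 6 libraries. MRPL15 (84.2 to 101 FPKM in the controls, 99.0 to 112 FPKM after knockdown) and MRPS34 (80.0 to 97.5 and 87.3 to 93.7 FPKM) came next, and their ranges overlapped in the controls but not after knockdown. MRPL45 did not change with knockdown beyond its spread (log2 fold change 0.04 ± 0.08, adjusted p = 0.735).

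At the low end were MRPS24 at a mean of 0.31 FPKM, MRPL38 at 0.782 FPKM and MRPL46 at 1.03 FPKM. MRPS24 had 15, 9 and 10 reads in the controls and 33, 2 and 12 reads in the siADAR1 libraries, so a change could not be resolved at this depth (log2 fold change 0.36 ± 0.65, adjusted p = 0.67). It shares 23.2% of its exon bases with URGCP-MRPS24, an annotated read-through gene. MRPL38 shares 41.1% of its exon bases with another gene and had a log2 fold change of -0.44 ± 0.28 (adjusted p = 0.206). How far such shared bases bear on these counts was not tested.

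**Figure D3:**
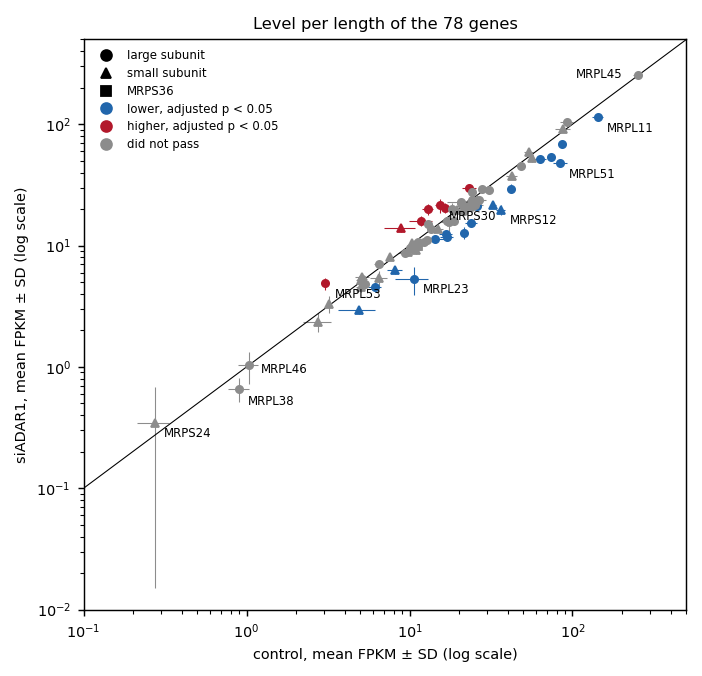
Mean FPKM in the controls (horizontal, log scale) against mean FPKM in the siADAR1 libraries (vertical, log scale) for the 78 genes, with standard deviations over 3 libraries as bars; the line marks equal levels. Circles are large-subunit genes, triangles small-subunit genes and the square MRPS36; MRPL45 stands alone at the top right, and MRPS24, with a standard deviation of 0.332 FPKM after knockdown, is the lowest.

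The genes lie on 21 chromosomes, and many start close to another gene. In 29 of the 78, a protein-coding gene starts within 1000 bases on the opposite strand, giving 27 distinct pairs in which both genes were tested. MRPL51 and NCAPD2, a condensin subunit, both fell (log2 fold changes -0.82 ± 0.09 and -1.07 ± 0.12), as did MRPL18 and TCP1, a chaperonin subunit (-0.51 ± 0.10 and -0.63 ± 0.08). MRPL10 and LRRC46 both rose (0.63 ± 0.11 and 0.85 ± 0.30). These were the 3 pairs in which both genes passed; in 17 of the 27 pairs the log2 fold changes had the same sign. In 13 pairs the partner changed and the ribosomal protein gene did not pass. Over the 27 pairs, 9 partners fell and 7 rose. Of all tested protein-coding genes, 28% fell and 26.3% rose, so 54.2% passed, and examples of partners that changed are to be read beside that share. HELQ, a DNA helicase, rose beside MRPS18C (1.01 ± 0.17 against 0.05 ± 0.15). MITD1 rose beside MRPL30, whose value was negative (0.84 ± 0.13 against -0.24 ± 0.10), and NDUFS6 fell beside MRPL36, whose value was positive (-0.29 ± 0.10 against 0.23 ± 0.12). EME1, a DNA endonuclease subunit, fell beside MRPL27 (-0.80 ± 0.17 against -0.20 ± 0.13).

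The strand setting of the counting is not stated, and no strand-marking step is given for the libraries, so the counts were treated as unstranded; on that assumption reads from opposite strands cannot be told apart where exons overlap. In MRPL51, 31.3% of the exon bases lie opposite exons of NCAPD2, and the part of these shared bases in its fall was not tested. In MRPS12 the share is 16.3%, opposite SARS2, a gene at only 3.24 ± 0.767 CPM (SD, n = 3) in the controls. Of the 18 genes that fell, 8 share no exon base with any annotated gene, as do 5 of the 7 that rose and 24 of the 53 that did not pass. The 75 annotated pseudogenes named after 34 of the 78 genes held 696 reads in all, against 436060 in the genes themselves; MRPS31 was the 1 gene whose pseudogenes held more than 5% of its own reads.

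**Figure D4:**
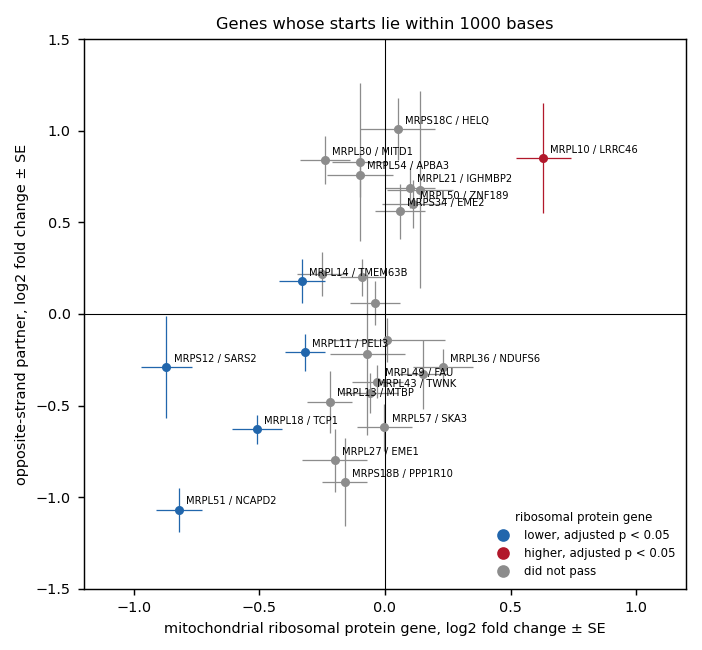
Log2 fold change of each mitochondrial ribosomal protein gene (horizontal) and of its tested opposite-strand partner (vertical), with standard errors, for the 27 pairs whose starts lie within 1000 bases; the pair of MRPS11 and MRPL46 is drawn once. Blue points are ribosomal protein genes that fell, red those that rose and grey those that did not pass; names are given where either gene passed.

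Of 5 mitochondrial ribosomal proteins that carry other names, 3 fell, 1 rose and 1 did not pass, where 25.0% of all tested genes fell and 26.0% rose. DAP3, a GTP-binding protein of the small subunit, stood at 133, 132 and 110 CPM in the controls and 98.1, 103 and 94.3 CPM after knockdown (log2 fold change -0.35 ± 0.10, adjusted p = 0.00847). AURKAIP1 fell by 0.38 and GADD45GIP1 by 0.28 on the log2 scale, and CHCHD1 had a value of -0.21 (adjusted p = 0.185). PTCD3, a small-subunit protein with pentatricopeptide repeats, rose from 69.7, 68.0 and 70.9 CPM to 99.1, 90.6 and 92.6 CPM (0.44 ± 0.09, adjusted p = 0.00103). On library totals alone DAP3 and GADD45GIP1 did not pass, at -0.23 and -0.16; GADD45GIP1 also lost its call, at -0.31 to -0.23, without any single library other than control 1 or control 3.

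Of 14 mitochondrial translation factors, 4 fell and 4 rose (28.6% each, near the 25.0% and 26.0% of all tested genes), with a median log2 fold change of 0.07. MTIF3, an initiation factor, rose from 10.7, 12.1 and 12.7 CPM to 19.6, 19.6 and 21.5 CPM (0.77 ± 0.14, adjusted p = 4.32e-04). GFM2, which acts in ribosome recycling, rose by 0.61 ± 0.10, and TSFM, the exchange factor of the elongation factor Tu, had a value of -0.59 ± 0.12. Without siADAR1 library 2 the 4 falls became 1, and without control 1 or siADAR1 3 they became 2. Of 25 assembly and rRNA modification factors, 5 fell and 6 rose (20% and 24%, also near those shares). The methyltransferases MRM1 and TFB1M and the GTPase GTPBP10 rose, at 1.09 ± 0.17, 0.89 ± 0.16 and 0.74 ± 0.10.

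Of 9 genes that maintain and transcribe mitochondrial DNA, 5 fell and none rose, with a median of -0.29. The 55.6% that fell stands beside 25.0% of all tested genes that fell and 51.0% called in either direction. TFAM, which packages and transcribes that DNA, stood at 103, 115 and 117 CPM in the controls and 57.5, 63.0 and 67.9 CPM after knockdown (-0.83 ± 0.10, adjusted p = 1.69e-05). MGME1, a nuclease, had a value of -0.66 ± 0.11 and TWNK, the replicative helicase, -0.43 ± 0.11. Without siADAR1 library 3, 3 of the 9 fell. Among 9 regulators of nuclear genes for mitochondria, 5 fell and 3 rose (55.6% and 33.3%), beside 25.0% and 26.0% of all tested genes. NRF1, an activator of such genes, stood at 28.8, 24.8 and 26.5 CPM against 14.3, 13.9 and 15.8 CPM (-0.86 ± 0.13, adjusted p = 1.09e-04), and YY1 fell by 0.47 on the log2 scale. The coactivator PPARGC1A rose from a low level, at 0.302, 0.202 and 0.985 CPM in the controls and 6.77, 6.68 and 5.47 CPM after knockdown (3.65 ± 0.40, adjusted p = 1.08e-05).

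Most messenger RNAs made inside mitochondria fell, while both mitochondrial ribosomal RNAs rose. Of the 13 mitochondrially encoded mRNAs, 11 fell and none rose, with a median log2 fold change of -0.60. The 84.6% that fell stands beside 25.0% of all tested genes. All of these mRNAs but MT-ATP8 lay above 100 CPM, where 44.8% of tested protein-coding genes fell. In MT-ND1 and MT-ND3, which passed, the groups overlapped. The ribosomal RNA of the large subunit, MT-RNR2, rose from 2893, 2951 and 3115 CPM to 5504, 4887 and 5529 CPM (0.83 ± 0.08, adjusted p = 3.05e-06). That of the small subunit, MT-RNR1, stood at 528, 487 and 489 CPM against 746, 513 and 633 CPM (0.33 ± 0.11, adjusted p = 0.0275), and its call was lost without siADAR1 library 1, at 0.19, and without control 2, control 3 or siADAR1 3, at 0.30 to 0.34. The libraries were made from RNA captured on oligo-dT, so levels of mitochondrial RNAs also depend on their short poly(A) tails.

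Related sets of nuclear genes give a scale for the 78. Of the 77 cytosolic ribosomal protein genes tested, 54 fell (70.1%) and none rose (median -0.29), led by RPS15 at -1.28 ± 0.09. Of 36 tested nuclear genes for subunits of respiratory complex I, 19 fell (52.8%) and 1, NDUFV3, rose (2.78%, median -0.30). Of all tested genes, 25.0% fell and 26.0% rose. Most of the cytosolic set lay at 100 CPM or more, where 44.8% of tested protein-coding genes fell (median -0.17). Most of the complex I set and of the 78 lay between 10 and 100 CPM, where 28.2% fell (median 0.003). On library totals alone, 35 of the 77 and 11 of the 36 fell, with a median of -0.18 in each. On those totals 2887 of all 15294 tested genes fell and 4892 rose, with a median of 0.12. The cytosolic set has far more reads, at a median of 7245 per gene and library against 629 for the 78 genes, whereas the complex I set has 690. No test of the difference between the sets was made.

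**Figure D5:**
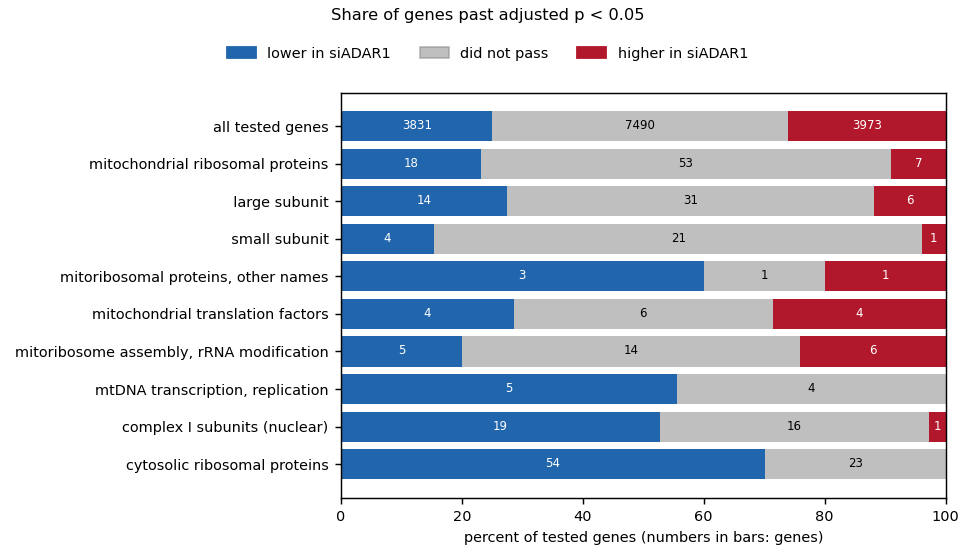
Share of tested genes (horizontal axis, percent) in each set that fell (blue), did not pass (grey) or rose (red) in siADAR1 libraries, with the number of genes written in each bar. For the mitochondrial ribosomal proteins the bar reads 18, 53 and 7 genes, for complex I subunits 19, 16 and 1, and for cytosolic ribosomal proteins 54, 23 and 0.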

How the data were processed

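Polyadenylated RNA of 3 control and 3 siADAR1 libraries was sequenced, per the labels' protocols. The submitters' processing notes list HISAT2 2.0.5, fastp and CASAVA, without saying what each did; for the counting tool and genome build, the sources used here name nothing. The deposited counts are whole reads per gene with no normalization, and the deposited FPKM values are fragments per kilobase scaled to library size, per the file headers. The library size implied by the FPKM was 0.966 to 0.97 of the count total in the controls and 1.05 to 1.06 in the siADAR1 libraries. The TMM factors were 0.957 to 0.963 and 1.04 to 1.05. The tests on FPKM thus carry a scaling close to that of the main fit and are no independent check of it. All 58735 gene coordinates equal those of GENCODE release 29 on GRCh38, and that annotation gave exon overlaps and neighbouring starts.

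Counts were tested with edgeR 4.0.16 (R 4.3.3): filterByExpr with a minimum count of 10, TMM scaling, robust quasi-likelihood F test, two-sided, Benjamini-Hochberg adjustment over 15294 genes, threshold 0.05. Of the genes in the table, 28008 had no read. The standard error is the absolute log2 fold change over the square root of F. No test was run on a list of genes. On simulated counts for the same comparison and 15294 genes, 38.1% of 1.5-fold, 75.4% of 2-fold and 94.3% of 4-fold changes were recovered, and 6.92% of calls were false. Alternatives used relative log expression factors, library totals, DESeq2 1.42.0, limma 3.58.1 on voom weights or on deposited FPKM, other filters, protein-coding genes alone, a replicate term and left-out libraries.

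The 78 genes and all lists were chosen with earlier results of these data known. Genes are named by rule: ADAR; the 10 lowest and 6 highest log2 fold changes among genes that passed; the 4 highest and 3 lowest mean FPKM; MRPL12, MRPL44, MRPL45, MRPL58, MRPS36 and the MRPS18 paralogs; the 5 mitochondrial ribosomal proteins with other names; the 3 smallest p-values of each other list; and both mitochondrial rRNAs. Promoters are those of the 3 lowest and 2 highest that passed, outside chromosome 8. Other names, such as those of opposite-strand partners and of the remaining genes that passed, were chosen after their values were seen. 1 leukocyte marker is not reported here.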

Additional observations from a re-analysis of the deposited data

How the results depend on the processing

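No call among the 78 genes changed direction under any of the 18 alternatives. The counts of lower genes stayed between 13 and 21 and those of higher genes between 4 and 12. Library totals alone, which moved the median of all genes to 0.12, gave 12 higher genes, 10 in the large and 2 in the small subunit and 7 among conserved genes, and 4 lower mitochondria-specific genes. Of all 15294 tested genes, 2887 were lower and 4892 higher on those totals. The medians were then 0.02 for the 78 genes and for each subunit, -0.005 for conserved and 0.05 for mitochondria-specific genes. For the other lists this scaling gave 1 lower gene and a median of -0.16 (ribosomal proteins with other names), 1 and 0.18 (translation factors), 3 and 0.03 (assembly factors), 3 and -0.18 (mitochondrial DNA), and 2 and -0.24 (regulators). The FPKM test with a pseudocount of 1 and no filter, which called 18.3% of all genes, gave 4 higher genes of the 78, 3 in the large subunit and 1 conserved, 2 lower small-subunit genes, 1 lower ribosomal protein with another name, 1 lower translation factor and 3 higher assembly factors. The median of all genes was 0.03 with no filter on counts, -0.007 on FPKM with a pseudocount of 0.1 or 1, and 0.006 on FPKM without a filter; the cause was not tested.

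Leaving out each library in turn gave 14 to 19 lower and 4 to 6 higher genes of the 78. The lowest count of higher genes came without siADAR1 1 and the lowest of lower genes without siADAR1 3. In these fits 24.4 to 32.1% of the 78 were called, beside 42.5 to 49.7% of all tested genes. Higher large-subunit genes then numbered 3 to 5 and higher conserved genes 1 to 3, and the conserved median ran from -0.18 to -0.09 and the small-subunit median from -0.13 to -0.05. Lower translation factors numbered 1 to 4 and lower mitochondrial DNA genes 3 to 5, and the median of the regulators ran from -0.36 to -0.26. Without both libraries numbered 1, 20 of the 78 were lower and 7 higher, and the medians were 0.03 for assembly factors and -0.24 for regulators. Library 1 of each group stood apart from the others (chi-square per degree of freedom 14.1 to 18 against 3.95 to 5.02 between libraries 2 and 3).

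With the replicate number as a block, 21 of the 78 genes were lower and 7 higher, and 56.1% of all genes passed. Same-numbered libraries deviated together with correlations of 0.25, 0.08 and 0.11. Between libraries of different number the correlations ran from -0.17 to 0.09, the highest between control 2 and siADAR1 3. These values do not settle whether same-numbered libraries were pairs, and the main fit did not take them as pairs. MRPS24 had the largest standard error of the 78 genes, 0.65. Simulated 1.5-fold changes were recovered in 38.1% of the changed genes, which were drawn from all tested genes. A far smaller share of genes was changed there than the 51.0% called here, so that rate does not describe the 78 genes.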

Other observations

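MRPL45 stood apart from its surroundings in level. Its mean of 254 FPKM compares with a median of 8.16 FPKM over 24 tested protein-coding genes within 1000000 bases of it on chromosome 17. Its 2 annotated pseudogenes held 382 reads in all libraries, against 42008 in MRPL45. The median log2 fold change of those 24 neighbours was -0.24, beside 0.04 ± 0.08 for MRPL45.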
